A study of Mus musculus with 4 samples.

Results

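The genes described here are 40 genes of mesenchymal cells and of the matrix around them, chosen by name: 20 genes of non-collagen matrix and matricellular proteins and of the enzymes that crosslink matrix, 8 genes of myofibroblasts and pericytes, 6 genes of the fibroblast surface or cytosol, and 6 transcription factors of mesenchymal cells. The list was chosen with earlier results of these data known, not by the values of its members. All 40 had a probe on the array, which named 29875 genes in all. A gene was tested if a probe stood well above background on both arrays of at least 1 genotype. This left 34 of the 40 and 18392 genes in all.

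The series held 4 one-colour Agilent arrays of total RNA from primary kidney tubular cells, grown in a commercial renal growth medium, from male mice of 8 weeks with a B6.J background. There were 2 wild type and 2 SerpinB2-/- samples. Both genotypes received PMA at 100 ng/ml, a phorbol ester known to switch on protein kinase C, so no array shows cells without it. SerpinB2-/- mice lack plasminogen activator inhibitor-2, a serine protease inhibitor of urokinase that many cells switch on under stress or phorbol ester. The labels do not say whether the samples of a genotype came from separate animals or cultures, nor which part of the gene was deleted. The p-values then measure the spread between these samples, which may be technical.

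Fibroblasts and pericytes lie between the tubules and along the capillaries of the kidney, and are known as the main source of scar matrix after injury. On activation such cells take on a contractile actin cytoskeleton and are called myofibroblasts. Fibrillin microfibrils, elastin and crosslinked collagen bear load in tissue, and the microfibrils also hold latent TGF-beta. Matricellular proteins such as thrombospondins, periostin and tenascin tune how cells hold on to matrix rather than bearing load. Cultured tubular cells also make fibronectin, thrombospondin and other matrix genes, so most of these transcripts are not specific to one cell type.

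Signals are given as normalised signal, the scanner's processed intensity with every array scaled to a common 75th percentile of 2004 units. Probes differ in brightness, so a signal is set only against the same probe on another array. The lowest signal still well above background was 23.0 to 24.8 units, and no spot was saturated. It is called the detection limit here, though a single probe above it could still fail to stand well above background. A gene was called higher or lower if limma's moderated test across all 18392 genes gave an adjusted p under 0.05 (Benjamini-Hochberg). Log2 changes are SerpinB2-/- minus wild type ± SE, with n = 2 per genotype. The smallest p that an exact two-sided permutation test can give for 2 against 2 samples is 0.333, so single genes rest on limma's pooled spread. Serpinb2 itself gave 3206 and 3278 on the wild type arrays against 5.48 and 7.38 on the SerpinB2-/- arrays, both of the latter under the detection limit. Its fitted change was -8.99 ± 0.15 (limma, adjusted p = 0.000711), which rests on those values. With the detection limit in their place it was lower by at least 139.7-fold. All 4 arrays lay on 1 slide, the wild type arrays in the first positions and the SerpinB2-/- arrays in the last, and position and genotype cannot be told apart.

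Of the 34 tested genes, 8 were higher and 2 lower in SerpinB2-/- cells. Among all genes tested 15.6% were called, 5.98% as higher and 9.67% as lower. The genotypes did not overlap in 18 of the 34 genes in the higher direction and in 4 in the lower direction, against 32.6% and 31.9% of all genes (64.4% in either direction). By role, matrix genes held 7 of the 10 calls, 6 of them higher (Thbs2, Postn, Mfap5, Emilin1, Fbn1 and Loxl1) and 1 lower (Fbln2). The 2 other higher calls were the surface genes Gpc3 and Cdh11, and the other lower call was the transcription factor Meox1. None of the 7 tested myofibroblast and pericyte genes passed the threshold. Gpc3 passed the filter on dim probes only through the SerpinB2-/- arrays, and Meox1, Eln and Dcn only through the wild type arrays. The other 30 tested genes were well above background on all 4 arrays. With only probes of that kind kept, 8 genes were higher and 1 was lower, Pdgfrb being among the higher ones.

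The calls rested on all 4 arrays. Without wild type replicate 1 the fit called 3 of the genes higher (Thbs2, Mfap5 and Gpc3) and 1 lower (Meox1). Without SerpinB2-/- replicate 2 it called 4 higher (Thbs2, Postn, Cdh11 and Gpc3) and 2 lower (Meox1 and Thy1). Without SerpinB2-/- replicate 1 it called 10 higher and 3 lower, and of the 10 genes called on all arrays only Mfap5 and Loxl1 were lost. Without wild type replicate 2 limma called none of them, while 12 of the 34 had an unadjusted p under 0.05, as did 24.9% of all genes. A fit without 1 array assumes that the lone array left of a genotype varies like the other genotype. The adjusted p of Thbs2, Gpc3 and Meox1 was 0.0510 in that fit, which called 4 genes of the whole array.

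Markers of other cells moved between the same arrays, and their part in these results was not tested. In bulk RNA fewer cells of a type and less RNA per cell cannot be told apart. The calls counted below stand beside 5.98% of all genes called higher and 9.67% called lower. Of 24 tubular epithelial markers 20 were tested, 2 were higher and 8 lower, and their summed normalised signal was 705556 to 711644 on the wild type arrays and 582937 to 605786 on the SerpinB2-/- arrays. Epcam, Cdh1, Cdh16, Krt8, Pax8, Lrp2 and Cubn were well above background on all 4 arrays. Markers of later tubule segments were mixed. Slc12a1, Slc12a3 and Calb1 were well above background on no array and Umod on 1 SerpinB2-/- array. Aqp2 (148 to 181 units) and Scnn1a (239 to 611 units) were so on all 4. The proximal marker Slc34a1 was also so on all 4, at 35.2 to 48.9 units. Of 12 endothelial markers 11 were tested, 1 was higher and 9 lower (Tek not above background), with sums of 17165 to 17626 on the wild type arrays and 12189 to 14586 on the SerpinB2-/- arrays. Of 16 leukocyte and macrophage markers 15 were tested, 0 were higher and 9 lower (Ms4a1 not above background), with sums of 28576 to 30887 on the wild type arrays and 22483 to 24004 on the SerpinB2-/- arrays. Mesothelial, podocyte and mesangial markers gave 1 higher call (Wt1, 0.80 ± 0.14) and 1 lower call (Msln, -1.33 ± 0.11) among 6 tested of 9, with Upk3b and Itga8 not above background on any array. Their sums were 32718 to 38341 on the wild type arrays and 18233 to 19615 on the SerpinB2-/- arrays, most of it from Msln. Without Msln they were 5629 and 5093 against 6312 and 7743, and the list's median change was -0.042. All 8 proliferation markers were higher, with sums of 62467 to 62956 on the wild type arrays and 86974 to 93937 on the SerpinB2-/- arrays.

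**Figure D1:**
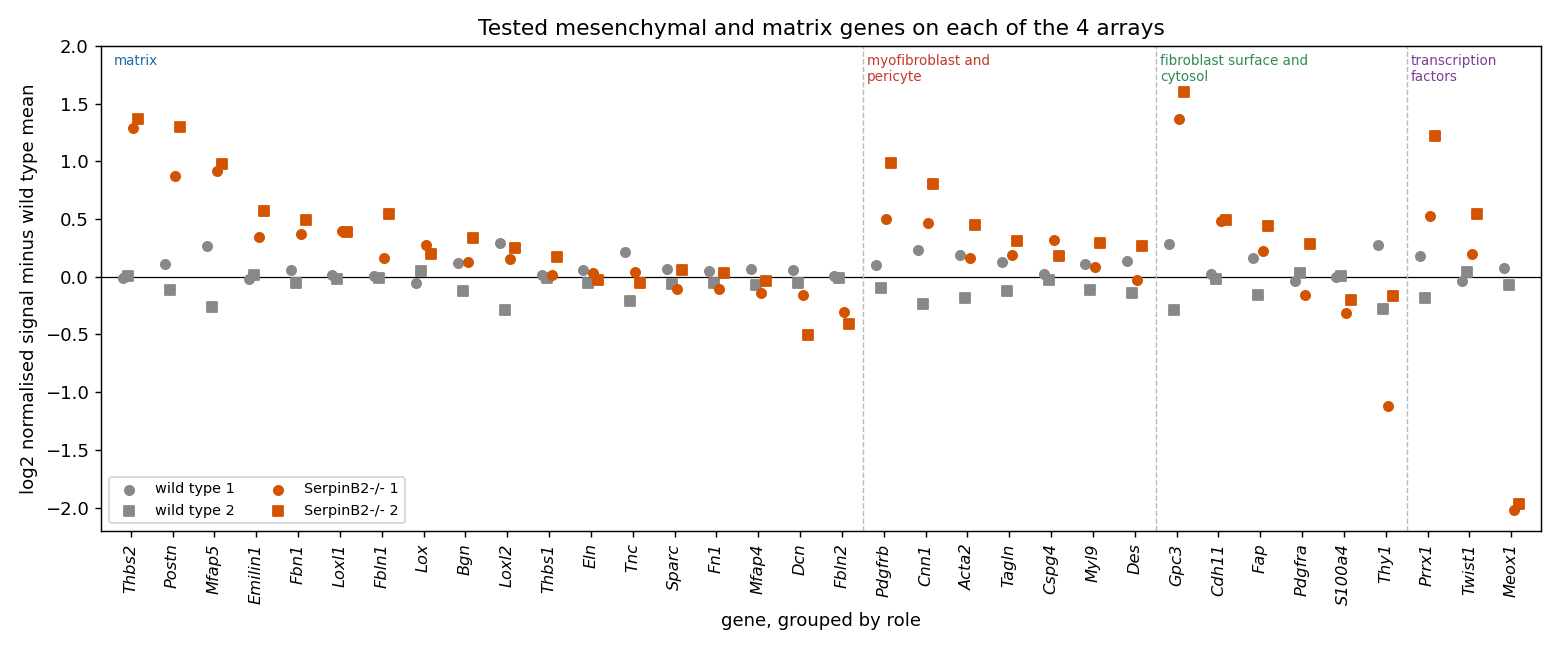
Each point is 1 array's log2 normalised signal for 1 of the 34 tested genes, minus that gene's mean over the 2 wild type arrays. Grey points are wild type, orange points are SerpinB2-/-, and circles and squares are replicates 1 and 2. The orange points of Thbs2, Postn, Mfap5 and Gpc3 stand clear above the grey ones, those of Meox1, under the detection limit, stand below the grey ones, and those of Thy1 lie far apart from each other.

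Promoter sequence is shown for 4 genes on either side of the contrast between matrix and contractile genes: Thbs2 and Fbn1, which were higher, and Acta2 and Myl9, contractile genes that did not pass. RefSeq windows on build GRCm38.p6, 250 bases before to 50 after a transcription start, matched 23 of the 40 genes. The 200 bases before the start are printed 5′ to 3′ on the gene's own strand, and capitals mark matches to the searched motifs. Thbs2 lies at chr17:14694263-14694462, minus strand, Fbn1 at chr2:125506439-125506638, minus strand, Acta2 at chr19:34255374-34255573, minus strand, and Myl9 at chr2:156775264-156775463, plus strand.
Thbs2: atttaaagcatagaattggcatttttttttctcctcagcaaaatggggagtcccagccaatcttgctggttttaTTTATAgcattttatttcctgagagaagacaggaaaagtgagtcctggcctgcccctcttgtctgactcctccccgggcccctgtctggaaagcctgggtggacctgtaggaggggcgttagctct
Fbn1: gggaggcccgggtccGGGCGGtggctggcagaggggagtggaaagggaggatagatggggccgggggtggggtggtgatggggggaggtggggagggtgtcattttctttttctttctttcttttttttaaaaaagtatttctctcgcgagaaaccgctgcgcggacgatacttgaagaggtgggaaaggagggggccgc
Acta2: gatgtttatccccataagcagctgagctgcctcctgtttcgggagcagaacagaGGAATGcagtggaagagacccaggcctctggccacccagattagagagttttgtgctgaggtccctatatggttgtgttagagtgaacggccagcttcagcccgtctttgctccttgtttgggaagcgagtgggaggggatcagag
Myl9: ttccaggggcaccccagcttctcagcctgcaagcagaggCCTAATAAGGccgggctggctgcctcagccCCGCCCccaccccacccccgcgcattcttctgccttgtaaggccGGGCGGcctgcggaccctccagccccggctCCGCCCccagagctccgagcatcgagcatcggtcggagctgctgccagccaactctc

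The motifs, searched on both strands with no mismatch allowed, began with the CArG box bound by serum response factor. It was written as CCWWWWWWGG, where W is A or T. The others were TGAGTCA of AP-1 (the factor that phorbol esters are known to activate), GGAATG of the TEAD factors, TATAAA, and GGGCGG of the Sp family. Near matches to the CArG box were not counted, such as ccctatatgg and ccttgtttgg in the Acta2 stretch, each 1 base off. No matches of different motifs overlapped in these genes. Capitals in Thbs2 mark TATAAA on the opposite strand, from position -126 relative to the start, and in Fbn1 GGGCGG. In Acta2 they mark GGAATG, and in Myl9 a CArG box from position -161 and 3 GGGCGG matches. A CArG box was found in 1.63% of all 32851 promoter windows of the same length, TGAGTCA in 5.20%, GGAATG in 14.7%, TATAAA in 13.6% and GGGCGG in 35.7%. Counted per gene, as some genes have several windows, the shares of 27025 genes were 1.81%, 5.95%, 16.6%, 15.7% and 38.2%. Of the 23 matched genes, 1 (Myl9) had a CArG box, none had TGAGTCA, 2 (Acta2 and Prrx1) had GGAATG, 7 had TATAAA and 11 had GGGCGG. Among the 5 matched genes that were higher, Thbs2 and Postn had TATAAA and Fbn1 and Gpc3 had GGGCGG, while Emilin1 had no match to any of the 5 motifs. These matches describe letters in a window and not binding.

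Among the matricellular genes Thbs2 and Postn were higher in SerpinB2-/- cells, while Thbs1, Tnc and Sparc overlapped between the genotypes. Thrombospondin-2 (Thbs2), a secreted glycoprotein known to restrain vessel growth and to clear matrix metalloproteinases, gave a normalised signal of 182 and 184 on the wild type arrays against 446 and 472 on the SerpinB2-/- arrays. The SerpinB2-/- arrays were both brighter by over 1 log2 unit, with little spread within a genotype, and Thbs2 was higher by 1.33 ± 0.06 log2 (limma, adjusted p = 0.00712). Thrombospondin-1 (Thbs1), known for activating latent TGF-beta, gave 155991 and 153097 on the wild type arrays against 155745 and 173615 on the SerpinB2-/- arrays. The Thbs1 ranges overlapped, and its change was 0.090 ± 0.07 (adjusted p = 0.445). The log2 ratio of Thbs2 to Thbs1 was 1.24 higher in SerpinB2-/- cells, a description with no test.

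Periostin (Postn), a matricellular protein that binds collagen and is known to appear in injured and fibrosing kidney, gave 2377 and 2039.7 on the wild type arrays against 4045 and 5408 on the SerpinB2-/- arrays. Both SerpinB2-/- arrays lay above both wild type arrays, and Postn was higher by 1.09 ± 0.16 (adjusted p = 0.0199). Tenascin-C (Tnc), an anti-adhesive protein of wounds, gave 9249 and 6892 on the wild type arrays against 8200.4 and 7678 on the SerpinB2-/- arrays. Its ranges overlapped fully (change -0.0090 ± 0.15), and a second probe gave 0.045. Sparc, a collagen-binding matricellular protein, gave 379601 and 347198 on the wild type arrays against 337766 and 378446 on the SerpinB2-/- arrays. The Sparc arrays interleaved, with a change of -0.022 ± 0.09, and further probes gave 0.098 and -0.055. Fibronectin (Fn1), the adhesive matrix protein on which many others assemble, gave 263693 and 245756 on the wild type arrays against 235873 and 259796 on the SerpinB2-/- arrays. Its change was -0.040 ± 0.08, so the log2 ratio of Postn to Fn1 was 1.13 higher in SerpinB2-/- cells (not tested).

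Of the genes of microfibrils and elastic fibres among the 40, Mfap5, Fbn1 and Emilin1 were higher, while Eln and Mfap4 did not pass. Microfibril-associated protein 5 (Mfap5, also MAGP-2), which binds fibrillins, gave 5684 and 3932 on the wild type arrays against 8921 and 9312 on the SerpinB2-/- arrays. The SerpinB2-/- values were close to each other and above both wild type values, which differed, and Mfap5 was higher by 0.95 ± 0.18 (adjusted p = 0.0337). Fibrillin-1 (Fbn1), the backbone of microfibrils, gave 2308 and 2134 on the wild type arrays against 2876 and 3128 on the SerpinB2-/- arrays. That is 0.43 ± 0.08 log2 (adjusted p = 0.0280). The Fbn1 call was lost in the authors' deposited table (adjusted p = 0.0565), and that of Mfap5 with quantile normalization (adjusted p = 0.0504). Emilin1, a glycoprotein where elastin meets microfibrils, gave 44.9 and 45.9 on the wild type arrays against 57.6 and 67.4 on the SerpinB2-/- arrays from a dim probe, a change of 0.46 ± 0.09 (adjusted p = 0.0377). Its change was 0.24 with normexp background correction (adjusted p = 0.149). That setting adds an offset of 50 units to every signal, which by itself shrinks the change of so dim a probe. The Emilin1 call was also lost in the authors' deposited table and with a trend in limma's variance model. It was kept in 8 of 15 alternatives. The Fbn1 and Emilin1 arrays did not overlap between the genotypes.

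Elastin (Eln), the core of elastic fibres, gave 32.7 and 30.3 on the wild type arrays against 32.3 and 30.8 on the SerpinB2-/- arrays, 1 of the SerpinB2-/- arrays being not well above background. Its change was 0.0021 ± 0.07. Mfap4, a fibrinogen-related protein of elastic fibres, gave 87.1 and 79.2 on the wild type arrays against 75.4 and 81.1 on the SerpinB2-/- arrays. The Mfap4 ranges overlapped (change -0.086 ± 0.08). The log2 ratio of Mfap5 to Mfap4 was 1.03 higher in SerpinB2-/- cells, without a test. Other pairs compared in this way differed less: Fbln1 to Fbln2 by 0.71, Fbn1 to Eln by 0.43 and Loxl1 to Loxl2 by 0.19. The ratio of Loxl1 to Loxl2 overlapped between the genotypes.

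Fbln1 and Fbln2 belong to the fibulins, glycoproteins that bind several matrix proteins. Fibulin-2 (Fbln2), which links basement membranes, fibronectin and fibrillin, gave 144584 and 143202 on the wild type arrays against 116508 and 108333 on the SerpinB2-/- arrays. Both SerpinB2-/- arrays lay below both wild type arrays, and Fbln2 fell by 0.36 ± 0.06 on the log2 scale (adjusted p = 0.0296). Fibulin-1 (Fbln1), a partner of fibronectin and elastic fibres, gave 82.2 and 81.3 on the wild type arrays against 91.3 and 119 on the SerpinB2-/- arrays. Its arrays did not overlap between genotypes, and the change of 0.35 ± 0.14 did not pass (adjusted p = 0.145, and 0.10 at a second probe). The Fbln2 call was lost with median scaling (-0.23, adjusted p = 0.0850) and with the replicate number as a block (adjusted p = 0.0566).

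Of the 3 lysyl oxidases among the 40, copper enzymes that crosslink collagen and elastin, Loxl1 passed. Loxl3, a relative outside the 40, was higher by 0.46 ± 0.10 (adjusted p = 0.0419) and was chosen for mention after its value was seen. Loxl4, another relative outside the 40, changed the other way by -0.27 ± 0.10 and did not pass (adjusted p = 0.128). Loxl1, needed in mice for elastic fibre upkeep, gave 13356 and 13007 on the wild type arrays against 17391 and 17281 on the SerpinB2-/- arrays and was higher by 0.40 ± 0.06 (adjusted p = 0.0182). Replicates of a genotype lay close together, and a second probe gave 0.25 (adjusted p = 0.151 over all probes). Lox, the founding enzyme of the family, gave 3947 and 4254 on the wild type arrays against 4966 and 4696 on the SerpinB2-/- arrays. Its arrays did not overlap, but its change of 0.24 ± 0.07 missed the threshold (adjusted p = 0.0856) and its second probe gave -0.030. Loxl2, known for crosslinking basement membrane collagen, gave 35318 and 23665 on the wild type arrays against 32084 and 34458 on the SerpinB2-/- arrays. Wild type replicate 2 was the low one, and without it the change of 0.20 ± 0.20 became -0.087. The 2 further Loxl2 probes gave 0.077 and 0.11.

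Small leucine-rich proteoglycans, which space collagen fibrils and bind TGF-beta, lay partly at or under the detection limit. Biglycan (Bgn) gave 1531 and 1294 on the wild type arrays against 1542 and 1773 on the SerpinB2-/- arrays. Its arrays did not overlap by a narrow margin, and the change was 0.23 ± 0.12 (adjusted p = 0.228). Decorin (Dcn) gave 32.1 and 29.6 on the wild type arrays against 27.6 and 21.7 on the SerpinB2-/- arrays, close to the detection limit, with 1 of the SerpinB2-/- arrays not well above background and a change of -0.33 ± 0.13 (adjusted p = 0.147). Lumican (Lum) and dermatopontin (Dpt), the latter a matrix protein outside this family, are both abundant in connective tissue fibroblasts. Neither was well above background on any array. Their normalised signals were 5.19 to 6.42 for Dpt and 5.17 to 6.29 for Lum.

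**Figure D2:**
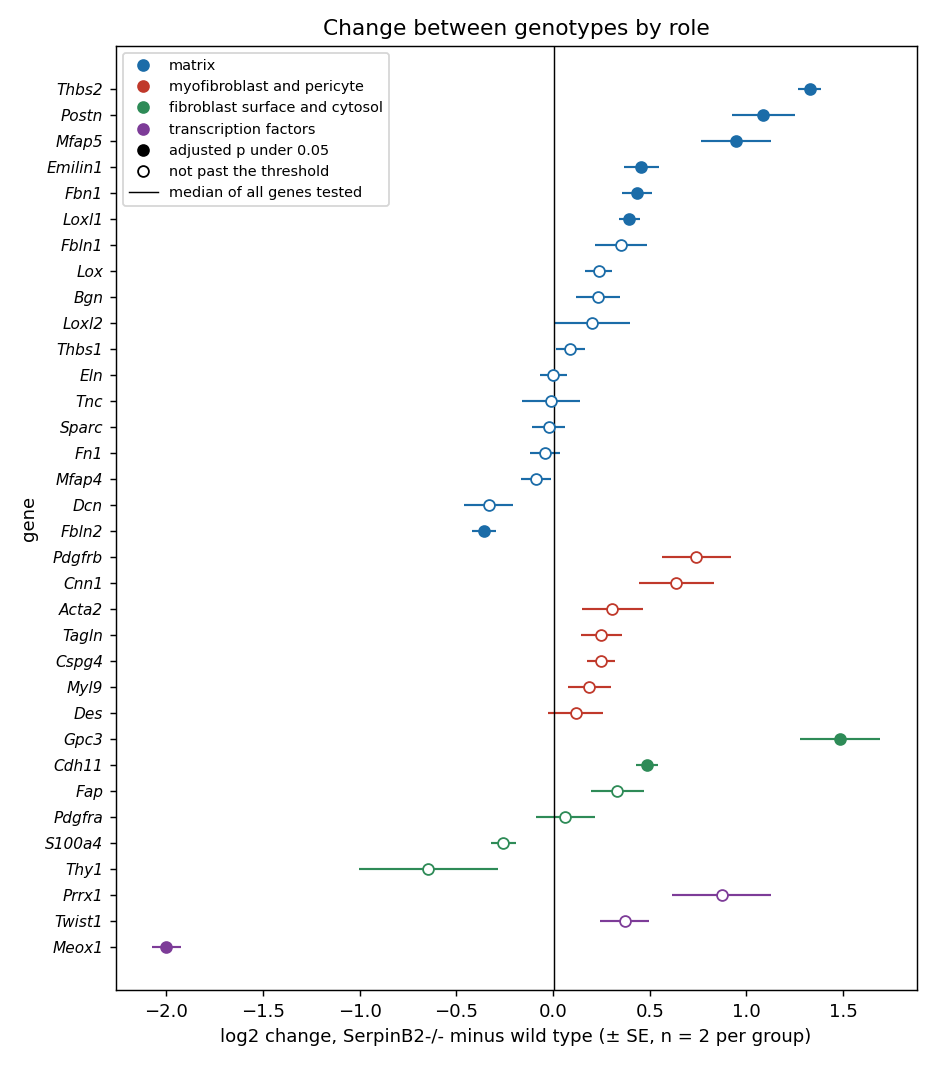
Points give the log2 change of each tested gene, SerpinB2-/- minus wild type, with bars of ± 1 SE (n = 2 per genotype) and colours for the 4 roles. Filled points passed an adjusted p of 0.05. Filled points are spread from Fbln2 at -0.36 to Thbs2 at 1.33 among matrix genes, while all 7 myofibroblast and pericyte points are open and lie between 0.12 and 0.74.

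The 7 tested myofibroblast and pericyte genes all had changes above 0, and none passed the threshold. Des alone turned below 0 in another setting, at -0.023 with wild type replicate 2 left out and at -0.031 with SerpinB2-/- replicate 2 left out. In 4 of the 7 the genotypes did not overlap, and 3 had an unadjusted p under 0.05 by limma, where 64.4% of all genes did not overlap and 34.3% had such a p. Smooth muscle actin (Acta2), the usual myofibroblast marker, gave 188618 and 145934 on the wild type arrays against 186059 and 226360.0 on the SerpinB2-/- arrays. The SerpinB2-/- value of replicate 1 fell inside the wild type range, and the change was 0.31 ± 0.16 (adjusted p = 0.246). Transgelin (Tagln), an actin-binding protein of smooth muscle, gave 264593 and 222911 on the wild type arrays against 276747 and 301652 on the SerpinB2-/- arrays. Its arrays did not overlap, with a change of 0.25 ± 0.10 (adjusted p = 0.168). The myosin regulatory light chain Myl9 gave 165270.1 and 141151 on the wild type arrays against 161957 and 186966 on the SerpinB2-/- arrays, overlapping between the genotypes, with a change of 0.19 ± 0.11.

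Calponin (Cnn1), which regulates actomyosin in smooth muscle, gave 70699 and 51199 on the wild type arrays against 83298 and 105139 on the SerpinB2-/- arrays. Both SerpinB2-/- arrays were above both wild type arrays, yet the replicates of each genotype differed widely, and the change of 0.64 ± 0.19 did not pass (adjusted p = 0.0914). Desmin (Des), an intermediate filament of muscle and pericytes, gave 869 and 717 on the wild type arrays against 773 and 947 on the SerpinB2-/- arrays, a partial overlap with a change of 0.12 ± 0.14. Pdgfrb was the nearest to the threshold in this role. Pdgfrb, the receptor through which PDGF-B holds pericytes on vessels, gave 1416 and 1231 on the wild type arrays against 1863 and 2614 on the SerpinB2-/- arrays. Its change of 0.74 ± 0.18 had an adjusted p of 0.0563, and it passed in 6 of 15 other settings, for example with normexp (adjusted p = 0.0313). One of these left out SerpinB2-/- replicate 1 (0.99, adjusted p = 0.0138), so that its spread came from the wild type arrays and the pooled prior. The NG2 proteoglycan gene Cspg4 gave 4932 and 4755 on the wild type arrays against 6031 and 5473 on the SerpinB2-/- arrays, not overlapping, with a change of 0.25 ± 0.07 (adjusted p = 0.0862). Rgs5, a G-protein regulator that marks resident pericytes, was not well above background on any array (at most 15.5 units).

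Set side by side, the matrix genes and the myofibroblast and pericyte genes gave 7 calls among 18 tested genes and 0 among 7, where 15.6% of all genes were called. The median log2 change was 0.22 over the matrix genes and 0.25 over the myofibroblast and pericyte genes, where that of all genes was 0.0058. The matrix genes spread from -0.36 to 1.33, with 12 above 0 and 6 below. No test of a difference between the roles was made. By array, the median deviation of the matrix genes from their wild type means was 0.056 and -0.056 on the wild type arrays against 0.14 and 0.22 on the SerpinB2-/- arrays. For the myofibroblast and pericyte genes it was 0.12 and -0.12 on the wild type arrays against 0.19 and 0.31 on the SerpinB2-/- arrays. Replicates of a genotype lay further apart in the contractile genes: the median SD between replicates was 0.17 log2 in wild type and 0.20 in SerpinB2-/- cells, against 0.079 and 0.080 for the matrix genes and 0.058 and 0.056 for all genes.

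**Figure D3:**
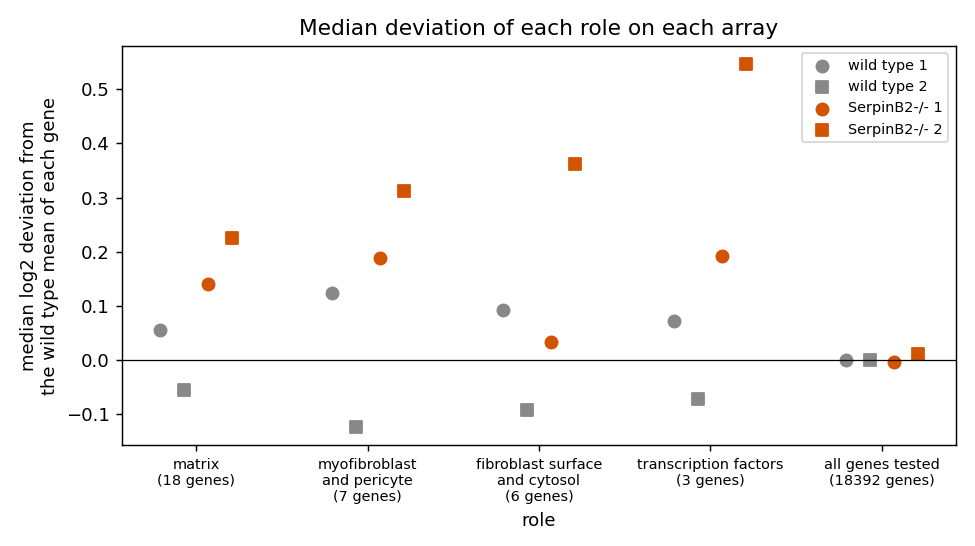
Each point is the median, over the tested genes of a role, of 1 array's log2 deviation from each gene's wild type mean, with all 18392 genes at the right. Grey is wild type and orange is SerpinB2-/-. All genes sit near 0 on every array, the matrix medians of the SerpinB2-/- arrays are at 0.14 and 0.22, and in the contractile genes the 2 wild type arrays are 0.12 above and 0.12 below 0.

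Of the 6 surface and cytosolic genes used to mark fibroblasts, Gpc3 and Cdh11 were higher in SerpinB2-/- cells and none passed as lower. Glypican-3 (Gpc3), a heparan sulphate proteoglycan of the cell surface that modulates growth factor signals in the embryo, gave 35.0 and 23.5 on the wild type arrays against 74.1 and 86.7 on the SerpinB2-/- arrays. Wild type replicate 2 was not well above background, and Gpc3 was higher by 1.48 ± 0.21 (adjusted p = 0.0178), or by 1.45 with that array set to its detection limit. With normexp the change was 0.64, where the added offset of 50 units by itself shrinks the change of a dim probe. Cadherin-11 (Cdh11), the adhesion molecule of mesenchymal cells, gave 6456 and 6258 on the wild type arrays against 8900.2 and 8917 on the SerpinB2-/- arrays. The replicates nearly coincided, and Cdh11 was higher by 0.49 ± 0.06 (adjusted p = 0.0121). A second Cdh11 probe gave 0.16, and with the mean of both probes the change was 0.32 (adjusted p = 0.0572).

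The other 4 surface and cytosolic genes did not pass. S100a4, a calcium-binding protein also called fibroblast-specific protein but made by macrophages as well, gave 9015 and 9084 on the wild type arrays against 7293 and 7867 on the SerpinB2-/- arrays. Its arrays did not overlap, with a change of -0.26 ± 0.06 (adjusted p = 0.0620), and -0.21 at a second probe. Thy1, a surface glycoprotein of fibroblasts and lymphocytes, gave 989.8 and 674 on the wild type arrays against 376 and 726 on the SerpinB2-/- arrays, the SerpinB2-/- arrays being nearly 1 log2 unit apart. Its change was -0.64 ± 0.36 (adjusted p = 0.272), and without SerpinB2-/- replicate 2 it was -1.12 (adjusted p = 0.0490, with the spread taken from the wild type arrays and the pooled prior). The fibroblast activation protease Fap gave 271 and 216 on the wild type arrays against 283 and 328 on the SerpinB2-/- arrays, not overlapping, with a change of 0.33 ± 0.14 (adjusted p = 0.164). Pdgfra, the PDGF receptor of interstitial fibroblasts, gave 81.5 and 85.3 on the wild type arrays against 74.7 and 102 on the SerpinB2-/- arrays, with overlap and a change of 0.064 ± 0.15.

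Of the 6 transcription factors, 3 could be tested. Meox1, a homeobox gene of somite development, gave 63.7 and 57.6 on the wild type arrays against 14.9 and 15.4 on the SerpinB2-/- arrays, the latter 2 values being under the detection limit. Its fitted change was -1.998 ± 0.073 (limma, adjusted p = 0.00619), which rests on those values under the limit. With the detection limit in their place Meox1 fell at least 2.61-fold, a bound with no p of its own. With normexp, which adds an offset of 50 units to every signal, the fitted change was -0.61, so the bound holds for the scanner's processed signal only. Prrx1, a homeobox regulator of mesenchyme, gave 251 and 195 on the wild type arrays against 318 and 515 on the SerpinB2-/- arrays. Its genotypes did not overlap, but the SerpinB2-/- arrays differed and the change of 0.87 ± 0.26 missed the threshold (adjusted p = 0.0873). A second Prrx1 probe gave 0.98 (adjusted p = 0.0277 over all probes). Twist1, a helix-loop-helix factor of mesenchyme and of epithelial-mesenchymal transition, gave 91.7 and 96.7 on the wild type arrays against 108 and 138 on the SerpinB2-/- arrays, not overlapping, with a change of 0.37 ± 0.13 (adjusted p = 0.120).

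Meox2 (a homeobox paralogue of Meox1), Tcf21 (a factor of kidney stromal progenitors) and Gli1 (the hedgehog effector that marks perivascular progenitors) were not well above background on any array. At the edge of the filter, the tested Dcn gave 21.7 to 32.1 units, and the untested Tcf21 and Gli1 gave 20.2 to 26.3 and 15.0 to 30.9.

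**Figure D4:**
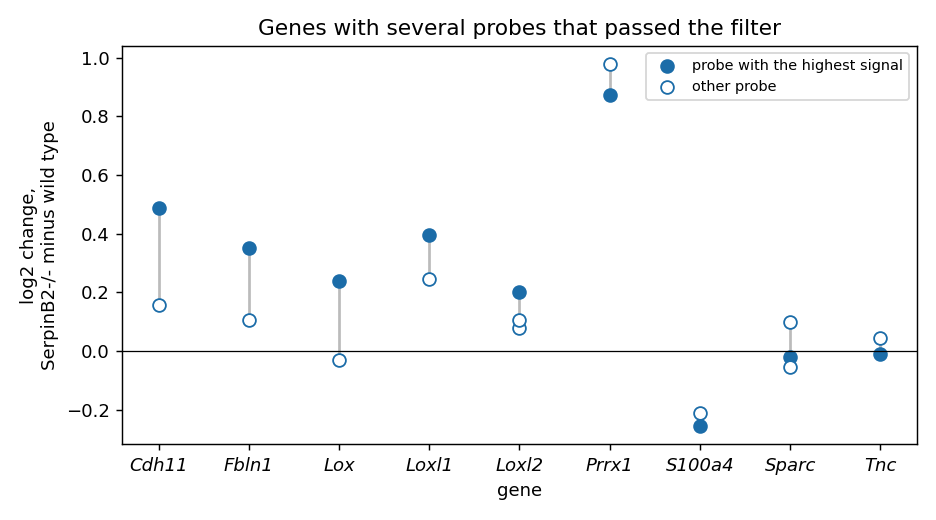
Points give the log2 change, SerpinB2-/- minus wild type, of every probe that passed the filter for genes with more than 1 such probe. Filled points are the probes used, open points the further ones. The Prrx1 probes lie together at 0.87 and 0.98, whereas those of Cdh11 (0.49 and 0.16) and Lox (0.24 and -0.030) lie apart.

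Probe positions from the deposited files, on build mm9, place the called genes as follows. The Thbs2 probe lay on chromosome 17, 14804526 to 14805789, a span wider than a probe, as it is for Emilin1 on chromosome 5, 31222545 to 31223001. The probe of Postn was on chromosome 3, 54194840 to 54194899, that of Fbn1 on chromosome 2, 125126727 to 125126786 and that of Loxl1 on chromosome 9, 58138570 to 58138629. Mfap5 (chromosome 6, 122478591 to 122478650) and Fbln2 (chromosome 6, 91222118 to 91222177) share a chromosome. Gpc3 is X-linked (chromosome X, 49625740 to 49625799), Cdh11 was on chromosome 8, 105157473 to 105157532 and Meox1 on chromosome 11, 101738847 to 101738906. No annotation on that build was used here, so exons and untranslated regions were not assigned.

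Related genes outside the 40, listed by role, are given next, where 5.98% of all genes tested were called higher and 9.67% lower. Of 45 other matrix and matricellular genes (collagens left out) 36 were tested, 4 were higher and 2 lower, with a median change of 0.052. Asporin (Aspn), a leucine-rich proteoglycan, gave 14.7 and 15.9 on the wild type arrays against 33.5 and 37.7 on the SerpinB2-/- arrays. Its fitted change was 1.22 ± 0.09 (limma, adjusted p = 0.00712), which rests on wild type values under the detection limit. With that limit in their place Aspn was at least 1.44-fold higher, a bound with no p of its own. It passed the filter on dim probes only through the SerpinB2-/- arrays. Pcolce, which helps to cut procollagen, was higher by 0.65 ± 0.12. The integrin-binding Tgfbi and the fibulin-family gene Efemp1 fell, with changes of -0.76 ± 0.06 and -0.65 ± 0.10. Of 31 other contractile and pericyte genes 27 were tested, 6 were higher and 1 lower, and the median was 0.11. The smooth muscle actin Actg2 gave 3922 and 3428 on the wild type arrays against 7492 and 8183 on the SerpinB2-/- arrays and was higher by 1.09 ± 0.09 (adjusted p = 0.00781). The endothelin receptor Ednra was higher by 0.98 ± 0.17, the laminin-binding integrin Itga7 by 0.44 ± 0.05, and Ndufa4l2, a mitochondrial protein of pericytes, changed by -0.58 ± 0.12.

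Other fibroblast surface genes gave 2 higher and 4 lower calls among 19 tested of 23, with a median of 0.040. The shares of all genes were 5.98% higher and 9.67% lower, as above. The stem cell antigen Ly6a (change -1.30 ± 0.07), the TGF-beta co-receptor endoglin (Eng, -1.08 ± 0.12) and the receptor ligand Gas6 (-0.78 ± 0.09) fell, and the growth factor Pdgfc was higher (0.57 ± 0.08). Ly6a and Eng are also made by endothelial cells. Other mesenchymal transcription factors gave 9 higher and 0 lower calls among 17 tested of 20, with a median of 0.34. The Twist1 relative Twist2 gave 505 and 445 on the wild type arrays against 875 and 954 on the SerpinB2-/- arrays and was higher by 0.95 ± 0.09 (adjusted p = 0.00893). Foxd1, the factor of the kidney's stromal lineage, was higher by 0.78 ± 0.10, the hedgehog factor Gli3 by 0.59 ± 0.06, and the Prrx1 relative Prrx2 by 0.58 ± 0.08. No list was tested as a set.

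**Figure D5:**
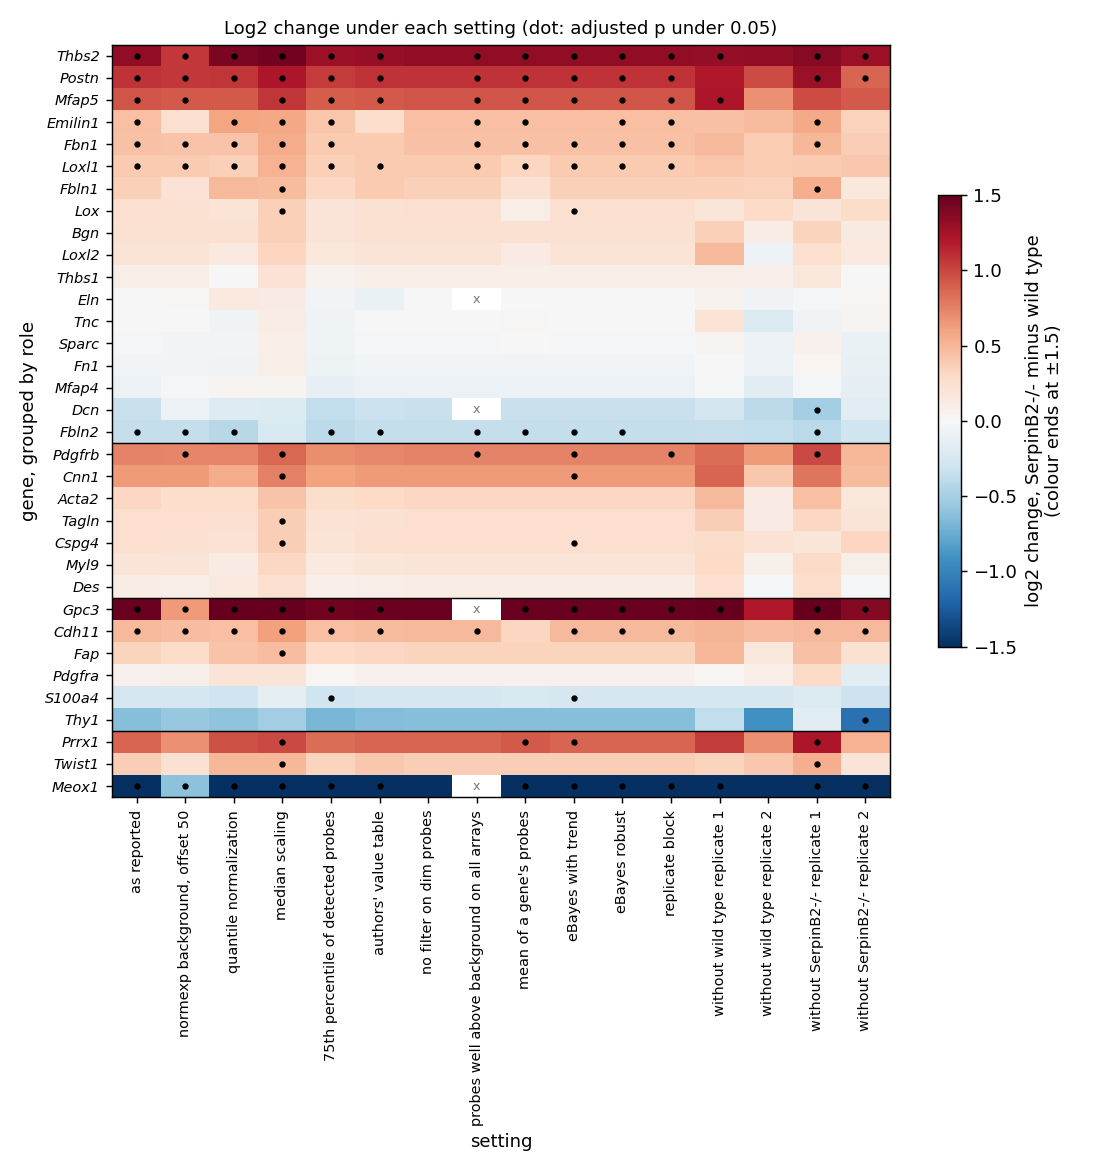
Colours give the log2 change of each tested gene (rows, by role) under each setting of the processing (columns), and a dot marks an adjusted p under 0.05. A cross marks a gene that the stricter filter left out. The rows of Thbs2, Postn, Mfap5 and Gpc3 stay red and that of Meox1 blue wherever these genes were tested, but no gene carries a dot in the columns with no filter on dim probes and with wild type replicate 2 left out.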

How the data were processed

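Total RNA of 4 samples (150 ng each, labelled with Cy3) was measured on one-colour arrays. Per the file headers, Agilent Feature Extraction had made the deposited intensity values by subtracting a background and removing spatial trends, and the submitters' processing notes give its version as 10.7.3.1. Build mm9 is that of the file headers. Spots marked as outliers and control spots were left out. The log2 of the deposited intensity was averaged over the 4 spots of a probe, and each array's 75th percentile over non-control spots was subtracted. A probe was used if over 50% of its spots were well above background on both arrays of at least 1 genotype, and the brightest such probe stood for a gene. Probe names were updated through a RefSeq table of GRCm38.p6 by accession (28328 probes) or older symbol (243). All 18392 genes were fitted with limma 3.58.1 (eBayes, R 4.3.3), SerpinB2-/- minus wild type, with no covariate, and Benjamini-Hochberg adjusted p-values under 0.05 were called.

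For a gene under the detection limit on both arrays of a genotype the fold is a bound ("at least"): the other genotype's mean is divided by the larger of the gene's own value and the array's lowest signal well above background, averaged over the dim arrays. That lowest signal is taken over all probes, and Gli1 at 30.9 units on a SerpinB2-/- array was still not well above background. The bounds therefore depend on this choice of limit and are not strict for each probe. Precision is limited by there being only 4 arrays. The members and lists were chosen with earlier results of these data known. Values on every array are given for all tested genes among the 40, and from each list of other genes up to 4 called genes with the largest change are named. Loxl3 and Loxl4 are named besides. The scripts were tested on simulated data. Alternatives changed the background correction, the scaling, the filter, the probe rule, the variance model and the samples, and one used the authors' deposited table of processed intensity. That table has a 75th percentile of 1500 and medians of 76 and 77 for wild type, 68 and 71 for SerpinB2-/-. Its floor is 4 and its scale is linear. Each column followed the scanner intensity by 1 factor (0.698 to 0.787). Of the probes well above background, 94.6 to 95.7% lay within 5% of that factor. No centring of genes was found. Same-numbered samples were not paired in the labels.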

Additional observations from a re-analysis of the deposited data

How the results depend on the processing

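Over 15 alternatives, all fitted with limma, the call of 8 higher genes among the 40 stayed within 1.5 times in 10 and that of 2 lower genes in 9. The count of all called genes, 2877, became 4773 when arrays were scaled by the median (median of all genes 0.13 log2) and 3 with no filter on dim probes (29875 genes tested). Leaving out 1 array gave 4 to 1779 genes. Of the 40, median scaling called 17 higher and 1 lower, and no filter called 0 higher and 0 lower, with 16 of 34 at an unadjusted p under 0.05 (19.4% of all genes). Leaving out 1 array gave 0 to 10 higher and 0 to 3 lower. The filter for probes well above background on all arrays left 1 lower call, as Meox1 was not tested there. With the replicate number as a block 2070 genes were called, 9 of the 40 higher and 1 lower. The labels do not say that numbers pair the samples, and over 18392 genes the differences between replicates 1 and 2 of the 2 genotypes correlated at r = 0.26. The matrix median of 0.22 became 0.34 with median scaling and 0.12 when probes were averaged, and 0.094 to 0.28 without 1 array. The myofibroblast and pericyte median stayed between 0.13 and 0.37 in all 15. The cause of these shifts was not tested. Of single-gene values 418 kept their call and direction, 26 newly passed, 41 no longer passed and 21 changed sign, none of the last in a called gene. With median scaling Fn1 was at 0.084, Mfap4 at 0.038, Sparc at 0.10 and Tnc at 0.12. Mfap4 was at 0.042 with quantile normalization, and Eln at -0.036 with the percentile of detected probes and -0.096 in the authors' table. With the mean of probes Sparc was at 0.0071 and Tnc at 0.018. Leaving out 1 array at a time, Fn1 ranged from -0.11 to 0.029 (0.010 without wild type replicate 1), Eln from -0.053 to 0.057 (-0.031 without SerpinB2-/- replicate 1), Loxl2 from -0.087 to 0.49, Sparc from -0.10 to 0.060 (0.042 without wild type replicate 1), and Tnc from -0.22 to 0.20 (0.039 without SerpinB2-/- replicate 2). Des went down to -0.031 and -0.023 without replicate 2 of either genotype, and Pdgfra to -0.16 without SerpinB2-/- replicate 2. Signal over background limits Eln, Dcn, Gpc3 and Meox1.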

Other observations

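Replicates of a genotype differed in 1 direction over most of the tested genes among the 40. Wild type replicate 1 was above replicate 2 in 28 of the 34 tested genes (82.4%), and in 49.8% of all genes. SerpinB2-/- replicate 2 was above replicate 1 in 27 of the 34 (79.4%), and in 54.5% of all genes. Among the myofibroblast and pericyte genes this held for 7 of 7 and 6 of 7, with median differences of 0.25 and 0.28 log2. The median differences over all tested genes were -0.00053 and 0.013. The numbers only name the samples, and no test was made.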
